A study of Mus musculus with 8 samples.

Results

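Glutamate receptor subunits and the proteins that anchor or modulate them were followed in whole brain of mice with a brain-specific knockout of SIRT1 (BSKO) and of wild-type (WT) littermates. SIRT1 is an NAD-dependent protein deacetylase. All animals were male C57/B6 mice aged 3 months, with 4 biological replicates per genotype, and each brain was measured on a separate Affymetrix Mouse430A_2 array of 1 channel. The label "brain specific" gives where the gene was deleted. The promoter behind the deletion is not given in the sources used here. Its absence limits what can be said of which cells lost the gene.

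The genes were chosen by symbol, as the AMPA, kainate, NMDA and delta receptor subunits, the metabotropic receptors, the stargazin family of AMPA receptor auxiliary subunits and relatives, Cacng2 to Cacng8, and the Dlg, Shank and Homer scaffold proteins. Of 43 genes named in this way, 30 were measured, on 41 probe sets that carry the symbol as their only one, out of 12393 genes on the array with such a probe set. The other 13 were not analysed here, and Grm8 is the only metabotropic receptor gene described.

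Glutamate carries most of the fast excitatory transmission in the brain. AMPA receptors open first and carry the fast current, NMDA receptors admit calcium once the membrane is depolarised, and kainate receptors act on both sides of the synapse, while metabotropic receptors signal through G proteins. Auxiliary subunits of the stargazin family carry AMPA receptors to the synapse and alter their gating, and scaffold proteins hold the receptors in the postsynaptic density. SIRT1 has been studied in memory and synaptic plasticity, and a comparison of these genes asks whether their transcripts differ in brain that lacks it.

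The deposited values are log2 values in which each probe set lies around 0, its own median over the 8 arrays. They show how arrays differ but not how strongly a gene is expressed, so the presence of a transcript, or of a labelled tissue, could not be read from them. The value of a gene is the mean of its probe sets, and a difference is BSKO minus WT on the log2 scale. The array BSKO 2 stood apart: its 5' probe sets for beta-actin and Gapdh lay -2.44 and -2.43 from the 3' ones, against -0.10 to 0.49 and -0.075 to 0.095 on the other arrays, so differences between the genotypes are given with 8 arrays and without BSKO 2. The deleted gene itself, Sirt1, overlapped between the genotypes (difference -0.50, limma adjusted p = 0.504, and -0.15 without BSKO 2, adjusted p = 0.401). It was -1.46 on BSKO 2 and -0.20 to 0.076 on the other BSKO arrays. Whether the deleted part is covered on the array was not analysed here, so Sirt1 leaves the labels unchecked. In whole tissue, fewer cells of a type and less RNA per cell cannot be told apart.

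None of the 30 genes passed an adjusted p of 0.05 with 8 arrays (limma with Benjamini-Hochberg adjustment over all genes), where 0.0726% of all genes did. Without BSKO 2 the auxiliary subunit gene Cacng4 rose, which is 1 of 30 (3.33%) beside 2.15% of all genes. On the level of probe sets none of 41 passed with 8 arrays (0.0309% of all probe sets did) and 2 passed without BSKO 2, Cacng4 as higher and 1 of the 2 Gria1 probe sets as lower, beside 1.63% of all probe sets. At an unadjusted p under 0.05 there were 5 genes (16.7%) with 8 arrays, beside 12.2% of all genes, and 7 (23.3%) without BSKO 2, beside 21.2%. The genotypes did not overlap for 4 genes, Gria1, Cacng4, Cacng6 and Grik5, which is 13.3% beside 13.2% of all genes. For genes, these shares lie near those of all genes, and the calls without BSKO 2 rest on 1 gene and 2 probe sets (4.88% of 41).

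The median difference over the 30 genes was 0.0025 with 8 arrays and 0.10 without BSKO 2, beside 0.030 and 0.015 over all genes. With 8 arrays 15 genes were higher in BSKO and 15 lower, and without BSKO 2 there were 20 and 10. Of all 12393 genes, 6792 were higher with 8 arrays and 6639 without BSKO 2. The sign was the same in both fits for 23 genes. The SE of the difference was larger with BSKO 2 for 27 of the 30. Leaving out BSKO 1 as well, which leaves 2 BSKO arrays, brought the calls to 6 genes (20%), Cacng2, Cacng4, Grik1, Grik5, Grm8 and Shank3, where 6.57% of all genes passed. With any other array left out beside BSKO 2 there were none.

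**Figure D1:**
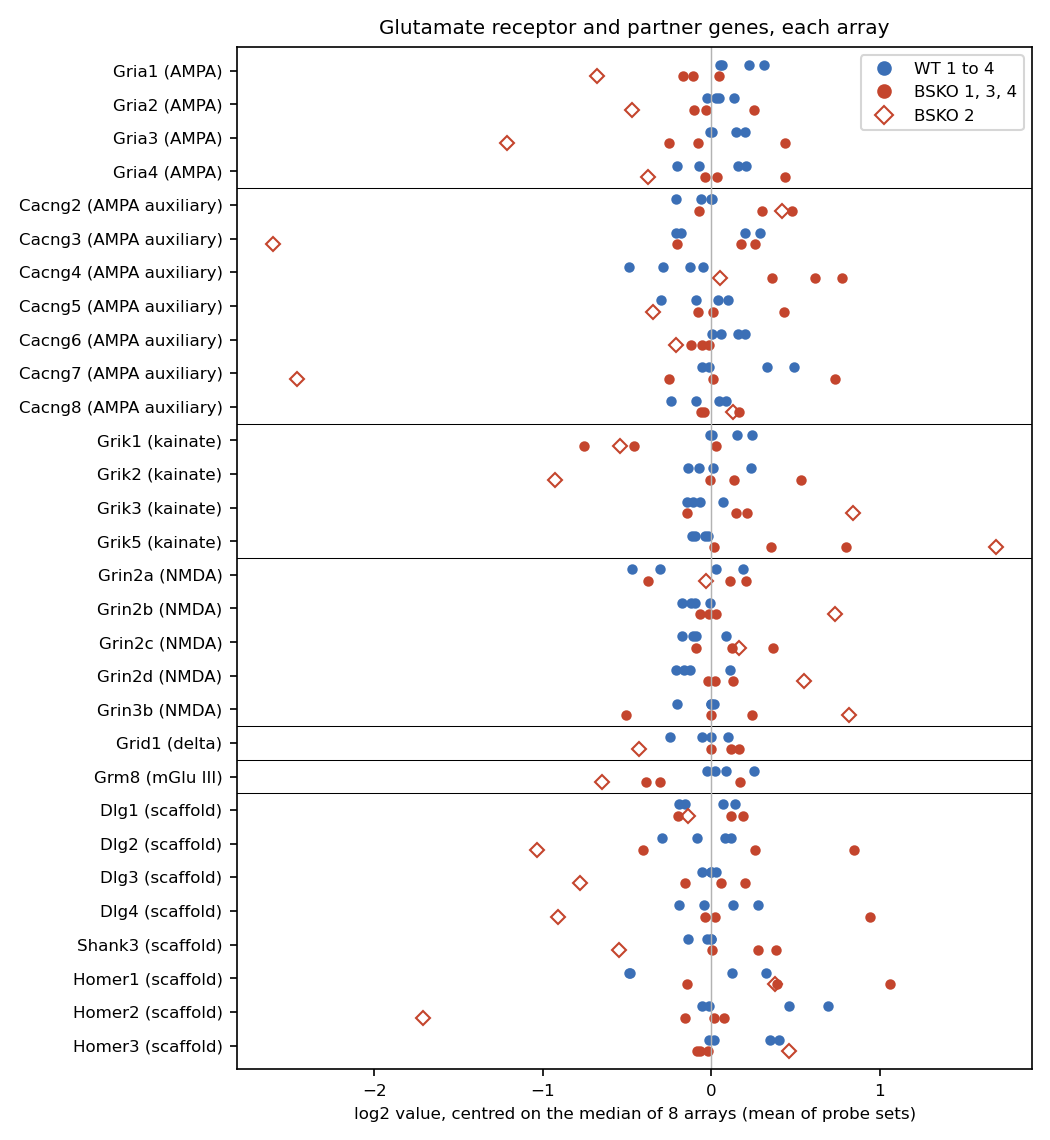
Log2 values, centred per probe set and averaged per gene, of the 30 measured genes on each of the 8 arrays (circles, with BSKO 2 as an open diamond). The values on BSKO 2 run from -2.60 for Cacng3 to 1.69 for Grik5, far beyond those of most other arrays.

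The AMPA receptor is built from Gria1 to Gria4, and all 4 subunit genes had a negative difference with 8 arrays, with a class median of -0.25. Without BSKO 2 the class median was -0.029, and 1 of the 4 was higher. With a further array left out its sign turned, to 0.078 without BSKO 1 and 0.018 without BSKO 4, and it was -0.18 without BSKO 3. No subunit gene passed in either fit. Gria1, which encodes the subunit that is added to synapses during potentiation, was 0.32, 0.23, 0.062 and 0.050 on WT 1 to 4 and -0.10, -0.68, 0.045 and -0.17 on BSKO 1 to 4. The highest BSKO array, BSKO 3, thus came close to the lowest WT array. The difference was -0.39 (SE 0.16, limma adjusted p = 0.397) with 8 arrays and -0.24 (SE 0.090, adjusted p = 0.189) without BSKO 2.

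Behind this mean the 2 Gria1 probe sets differed from each other. Probe set 1435239_at was 0.35, 0.36, 0.21 and 0.22 on WT 1 to 4, and -0.21, -0.95, -0.28 and -0.33 on BSKO 1 to 4. Every BSKO array lay below every WT array. The difference was -0.73 (SE 0.17, limma adjusted p = 0.200) with 8 arrays and -0.56 (SE 0.072, adjusted p = 0.0193), or 1.48-fold lower, without BSKO 2. Within replicates 1 and 2 the difference was -0.94, and within replicates 3 and 4 it was -0.53. Probe set 1448972_at was 0.28, 0.088, -0.088 and -0.12 on WT 1 to 4, and 0.0022, -0.42, 0.37 and -0.0022 on BSKO 1 to 4. Here the genotypes overlapped fully, with a difference of -0.050 with 8 arrays and 0.085 without BSKO 2 (95% interval -0.22 to 0.39), an interval that does not reach the -0.56 of the other probe set. The interval of that one, -0.73 to -0.40, does not reach 0. The part of the transcript that each probe set covers was not analysed here, and a decrease of Gria1 therefore rests on 1 probe set. Without BSKO 2 its call was also lost without WT 1 (adjusted p = 0.0612), WT 2 (0.0827), WT 4 (0.0650) or BSKO 4 (0.0627), with differences of -0.59 to -0.54.

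Gria2, whose subunit makes the channel impermeable to calcium, differed by -0.13 with 8 arrays. Without BSKO 2 the difference was -0.0061 (95% interval -0.22 to 0.21). Gria3 differed by -0.36 with 8 arrays and -0.051 without BSKO 2, as the array BSKO 2 alone was at -1.21 and the other BSKO arrays at -0.25 to 0.44. Gria4, prominent in fast-spiking interneurons, differed by -0.0078 and 0.12.

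**Figure D2:**
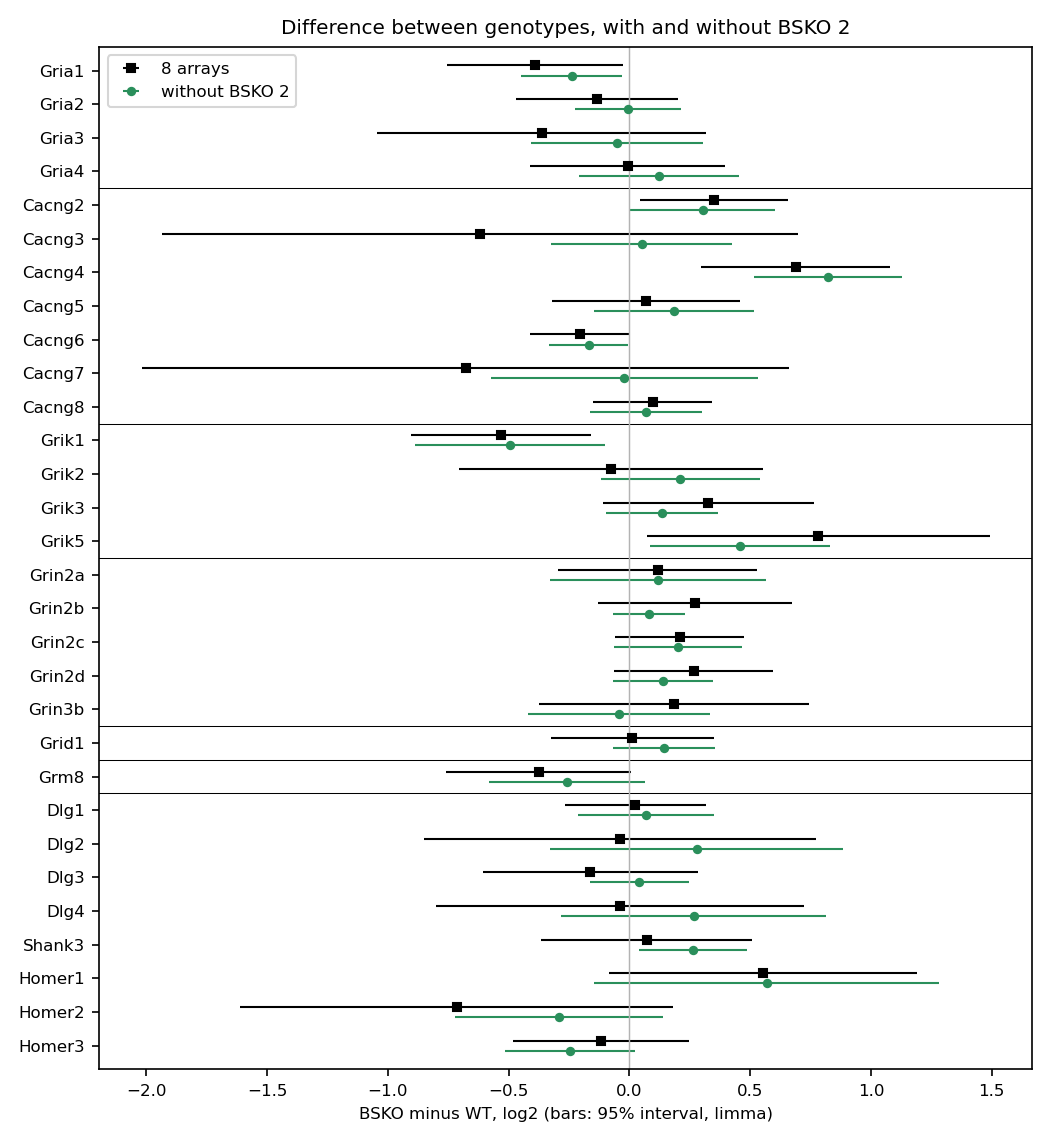
BSKO minus WT difference of each gene on the log2 scale with its 95% interval from limma, with 8 arrays (squares) and without BSKO 2 (circles). The interval of Cacng4 without BSKO 2 runs from 0.52 to 1.13, while those of Cacng3 and Cacng7 with 8 arrays are the widest.

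The stargazin family held the 1 gene that passed, Cacng4, and 2 genes with very low values on BSKO 2, Cacng3 and Cacng7. Cacng4, which encodes the stargazin relative TARP gamma-4, was -0.28, -0.49, -0.13 and -0.051 on WT 1 to 4 and 0.36, 0.051, 0.78 and 0.62 on BSKO 1 to 4. Every BSKO array lay above every WT array, and BSKO 2 was the lowest of its group. The difference was 0.69 (SE 0.17, limma adjusted p = 0.194) with 8 arrays and 0.82 (SE 0.13, adjusted p = 0.0300), or 1.77-fold higher, without BSKO 2. Over replicates 1 and 2 alone it amounted to 0.59, over replicates 3 and 4 to 0.79. Leaving out any 1 WT array, BSKO 3 or BSKO 4 beside BSKO 2 ended the call, with adjusted p values from 0.0663 to 0.0952 and differences from 0.73 to 0.89. Cacng4 has 1 probe set here, so no other probe set could be set beside it.

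Cacng2, which encodes stargazin itself, was -0.058, 0.0025, -0.0025 and -0.21 on WT 1 to 4 and -0.074, 0.42, 0.48 and 0.30 on BSKO 1 to 4. BSKO 1 lay among the WT arrays and the other BSKO arrays above them. The difference of 0.35 (SE 0.13, limma adjusted p = 0.374) with 8 arrays and 0.30 (adjusted p = 0.231) without BSKO 2 did not pass. Cacng8, a further AMPA receptor auxiliary subunit, differed by 0.096 and by 0.068 without BSKO 2 (95% interval -0.16 to 0.30).

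Cacng3 and Cacng7 gave the widest split between BSKO 2 and its group. Cacng3 was -0.20, 0.26 and 0.18 on BSKO 1, 3 and 4 and -2.60 on BSKO 2, with -0.21 to 0.29 in WT. Cacng7 was -0.25, 0.74 and 0.012 on BSKO 1, 3 and 4 and -2.46 on BSKO 2, with -0.056 to 0.49 in WT. Their differences of -0.62 and -0.68 with 8 arrays became 0.051 and -0.022 without that array. Neither passed in either fit (limma adjusted p = 0.603 to 0.971).

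Cacng6, a stargazin relative that is not counted among the AMPA receptor auxiliary subunits, was 0.0057, 0.061, 0.20 and 0.16 on WT 1 to 4 and -0.053, -0.21, -0.12 and -0.013 on BSKO 1 to 4. The genotypes did not overlap for this mean, but they did overlap for each of its 2 probe sets. The difference was -0.21 (SE 0.091, limma adjusted p = 0.414) with 8 arrays and -0.17 (adjusted p = 0.219) without BSKO 2. Cacng5 differed by 0.067 and 0.18. In the RefSeq annotation of assembly GRCm38.p6, Cacng4 and Cacng5 are next to each other among the protein-coding genes, as are Cacng7, Cacng8 and Cacng6 in that order. The 5 genes of these clusters had differences without BSKO 2 of 0.82 and 0.18, and of -0.022, 0.068 and -0.17, and the difference between neighbours was not tested.

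Of the kainate receptor subunits 4 of 5 were measured, with a class median of 0.13 with 8 arrays and 0.17 without BSKO 2, and none passed. The class median became 0.55 and 0.30 without probe sets whose names end in _s_at, _x_at or _a_at. This drops Grik1 and Grik2, as the 1 probe set of each has such a name, and leaves only Grik3 and Grik5. Grik5, which encodes a high-affinity subunit that needs a partner to form a channel, was -0.12, -0.037, -0.017 and -0.098 on WT 1 to 4 and 0.017, 1.69, 0.36 and 0.80 on BSKO 1 to 4. The WT arrays lay close together, and the BSKO arrays lay above them over a wide range, with BSKO 1 nearest to WT. The difference was 0.78 (SE 0.31, limma adjusted p = 0.385) with 8 arrays, the largest of the 30 genes, and 0.46 (SE 0.16, adjusted p = 0.169) without BSKO 2. Grik1, whose subunit can form channels on its own, was 0.15, 0.0079, -0.0079 and 0.24 on WT 1 to 4 and 0.026, -0.54, -0.75 and -0.46 on BSKO 1 to 4. Here BSKO 1 lay among the WT arrays and the other BSKO arrays below them. The difference was -0.53 (SE 0.16, adjusted p = 0.281) and -0.49 (SE 0.17, adjusted p = 0.162).

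With arrays weighted by their spread, both Grik1 and Grik5 passed over 8 arrays (limma adjusted p = 0.0323 and 0.0234, differences -0.50 and 0.68), in a fit where 9.96% of all genes passed. Grik2 differed by -0.076 with 8 arrays and 0.21 without BSKO 2. Grik3 differed by 0.33 and 0.13, with BSKO 2 at 0.84 above every other array.

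The 5 measured NMDA receptor subunit genes were all higher in BSKO with 8 arrays, by 0.12 to 0.27, and 4 of the 5 were higher without BSKO 2, by up to 0.20. None passed in either fit, and the WT and BSKO arrays overlapped for each. Grin2d, a subunit of early development and interneurons, was -0.13, 0.11, -0.16 and -0.21 on WT 1 to 4 and 0.13, 0.55, 0.021 and -0.021 on BSKO 1 to 4, a difference of 0.27 (SE 0.15, limma adjusted p = 0.471) that was 0.14 (adjusted p = 0.410) without BSKO 2. Grin2a, which takes over from Grin2b as synapses mature, differed by 0.12 in both fits, with a 95% interval of -0.33 to 0.57 without BSKO 2. Grin2c, the subunit of cerebellar granule cells, differed by 0.21 and 0.20. Grin3b, whose subunit binds glycine, differed by 0.18 and -0.044.

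Grin2b had 2 probe sets with opposite differences. Probe set 1422223_at differed by -0.11 with 8 arrays and -0.13 without BSKO 2, while 1431700_at differed by 0.65 and 0.30. The second was 1.44 on BSKO 2 and -0.025 to 0.057 on the other BSKO arrays, against -0.59 to 0.025 in WT. The mean of both differed by 0.083 without BSKO 2 (95% interval -0.067 to 0.23).

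Grid1, an orphan relative of these channels that binds synaptic organisers, differed by 0.013 with 8 arrays and 0.14 without BSKO 2 (95% interval -0.067 to 0.35). Its values were 0.00067, -0.056, 0.098 and -0.24 on WT 1 to 4, and -0.00067, -0.43, 0.12 and 0.16 on BSKO 1 to 4, so the genotypes overlapped. Grm8, a presynaptic group III metabotropic receptor that dampens transmitter release, was 0.25, 0.025, 0.088 and -0.025 on WT 1 to 4 and 0.17, -0.65, -0.39 and -0.30 on BSKO 1 to 4. BSKO 1 lay among the WT arrays and the other BSKO arrays below them all, the same arrangement as for Grik1. The difference was -0.38 (SE 0.17, limma adjusted p = 0.416) and -0.26 (SE 0.14, adjusted p = 0.327).

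The scaffold genes are introduced with 2 sequences, chosen after the values were seen. The first lies before the start of Homer1, a gene that is induced by neuronal activity. The second lies before the start of Grik5, the gene with the largest difference over 8 arrays. Homer1 makes long scaffold forms and a short form that appears after activity and uncouples group I metabotropic receptors from their partners. The letters TGACG are known as the core of the cAMP response element, which CREB binds, and GGGCGG as the GC box of Sp1. Both were searched on both strands in the 250 bases before each start site in the RefSeq table of build GRCm38.p6, which holds 23 of the 30 genes. The Homer1 stretch lies at chr13:93303507-93303756 on the plus strand and the Grik5 stretch at chr7:25072370-25072619 on the minus strand. Matches are in capitals, TGACG in Homer1 and GGGCGG in Grik5.
Homer1: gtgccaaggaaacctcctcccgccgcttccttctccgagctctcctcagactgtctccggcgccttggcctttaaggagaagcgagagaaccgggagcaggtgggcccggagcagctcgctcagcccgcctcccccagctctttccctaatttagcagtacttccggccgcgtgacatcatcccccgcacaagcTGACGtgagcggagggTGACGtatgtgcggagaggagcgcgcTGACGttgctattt
Grik5: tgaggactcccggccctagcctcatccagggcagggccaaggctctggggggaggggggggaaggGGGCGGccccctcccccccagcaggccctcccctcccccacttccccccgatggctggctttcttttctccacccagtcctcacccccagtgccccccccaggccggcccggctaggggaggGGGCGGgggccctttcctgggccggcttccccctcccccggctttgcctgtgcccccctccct
The Homer1 stretch holds 3 matches to TGACG, a number that 0.688% of all 32851 stretches in the table reach, where 17.8% hold at least 1. A second Homer1 start site in the table holds 0. Of the 23 genes 4 hold a match: Homer1, Dlg3, Dlg4 and Grm8. The Grik5 stretch holds 2 matches to GGGCGG, which 16.7% of all stretches reach, where 32.7% hold at least 1. Of the 23 genes 12 hold a match to GGGCGG, Grik5 among them. These matches describe the sequence and are no evidence that a factor binds there.

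Homer1 itself was -0.49, -0.48, 0.33 and 0.12 on WT 1 to 4 and -0.14, 0.38, 1.06 and 0.39 on BSKO 1 to 4. WT 1 and WT 2 lay below all other arrays and BSKO 3 above them, so the WT arrays alone spanned more than the difference between genotypes. That difference was 0.55 (SE 0.28, limma adjusted p = 0.456) with 8 arrays and 0.57 (SE 0.31, adjusted p = 0.330) without BSKO 2. The 3 probe sets of Homer1 parted on BSKO 2. There 1425671_at was 2.87, while 1421768_a_at was -0.67 and 1425710_a_at -1.07. On BSKO 3 all were high, at 1.07, 1.00 and 1.12 in the same order. On BSKO 4 they were -0.075, 0.60 and 0.65, and on WT 2 -0.94, -0.23 and -0.27, so 1425671_at was the lowest of the 3 on both. Which Homer1 form each probe set covers was not analysed here. With 8 arrays the differences of 1425671_at, 1421768_a_at and 1425710_a_at were 1.25, 0.28 and 0.13, and without BSKO 2 they were 0.61, 0.57 and 0.53. None passed in either fit (limma adjusted p without BSKO 2 = 0.287 to 0.410). The 8-array difference of Homer1 was accordingly 0.30 with the median of its probe sets, and 1.25 with 1425671_at alone, the 1 whose name does not end in _a_at.

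**Figure D3:**
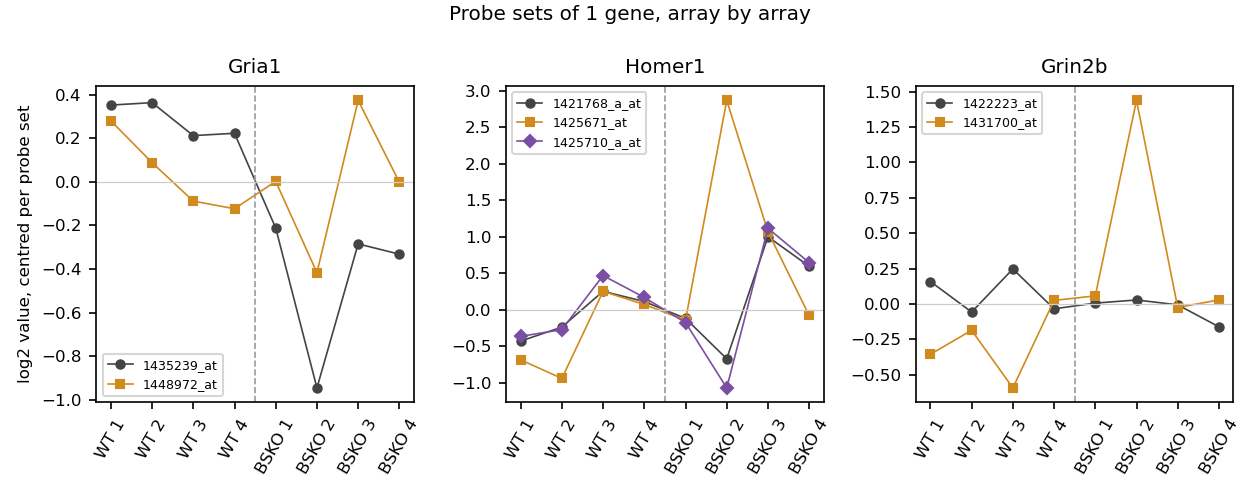
Log2 values, centred per probe set, of the probe sets of Gria1, Homer1 and Grin2b on each array, with WT to the left and BSKO to the right of the dashed line. On BSKO 2 the Homer1 probe sets span 3.94, from -1.07 to 2.87.

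Gaps between probe sets of a gene were, in the median, widest on BSKO 2. For the 9 genes with 2 or 3 probe sets, the median span between them was 0.68 on BSKO 2 and 0.086 to 0.22 on the other 7 arrays. Those arrays include BSKO 3, where Dlg4 and Gria1 nonetheless spanned 0.73 and 0.66. The differences between genotypes had opposite signs among the probe sets of a gene for 4 of the 9 with 8 arrays, and for 3 of the 9 without BSKO 2.

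The other Homer genes had patterns of their own. Homer2 was 0.69, 0.46, -0.055 and -0.015 on WT 1 to 4 and 0.015, -1.71, 0.077 and -0.15 on BSKO 1 to 4, so that WT 1 and WT 2 were the highest arrays and BSKO 2 by far the lowest. The difference was -0.71 (SE 0.39, limma adjusted p = 0.472) with 8 arrays and -0.29 (SE 0.19, adjusted p = 0.402) without BSKO 2. Homer3, a form known from Purkinje cells, was 0.35 and 0.40 on WT 1 and WT 2, 0.46 on BSKO 2 and -0.085 to 0.015 on the remaining 5 arrays. It differed by -0.12 and -0.25.

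The membrane-associated guanylate kinases Dlg1 to Dlg4, which tie NMDA and AMPA receptors to the postsynaptic density, differed by -0.16 to 0.025 with 8 arrays and by 0.041 to 0.28 without BSKO 2. None passed. Dlg4, which encodes PSD-95, was -0.19, -0.043, 0.28 and 0.13 on WT 1 to 4 and -0.039, -0.91, 0.94 and 0.024 on BSKO 1 to 4. BSKO 2 and BSKO 3 lay beyond the other arrays on opposite sides, and the difference was -0.038 with 8 arrays and 0.27 without BSKO 2 (95% interval -0.28 to 0.82). Dlg2 had the same arrangement, with -1.04 on BSKO 2 and 0.85 on BSKO 3. Shank3, which links these complexes to Homer proteins and actin, was -0.55 on BSKO 2 and 0.0052, 0.38 and 0.28 on BSKO 1, 3 and 4, with -0.14 to 0.0014 in WT. Its difference was 0.071 with 8 arrays and 0.26 (SE 0.097, limma adjusted p = 0.180) without BSKO 2.

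BSKO 2 and BSKO 3 also lay apart from each other over the 30 genes as a whole. On BSKO 2 the SD over the 30 genes was 0.93, beside 0.72 over all genes, and on BSKO 3 it was 0.42 beside 0.28. On the other 6 arrays it was 0.16 to 0.25. The median of the 30 was -0.36 on BSKO 2 and 0.20 on BSKO 3, where the medians of all genes were 0.052 and -0.014. The 2 arrays lay on opposite sides of 0 for 20 of the 30 genes (66.7%), 15 of them low on BSKO 2 and high on BSKO 3, beside 56.2% of all genes. The 5' to 3' difference of beta-actin was -2.44 on BSKO 2 and 0.49 on BSKO 3, the lowest and the highest of the 8 arrays. That of Gapdh was also lowest on BSKO 2, at -2.43. On BSKO 3 it was 0.0046, below WT 2, WT 3 and WT 4 (up to 0.095), so only beta-actin set BSKO 3 apart. The part of these 5' to 3' differences in the values of the 30 genes was not tested.

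Some lists of markers of brain regions or cell types varied over the arrays in an order like that of several of the genes. Of 12 markers of striatal projection neurons 7 were measured, and all 7 were higher in BSKO with none called. Their median was -1.94, -1.79, 0.0057 and -0.084 on WT 1 to 4 and 0.059, 0.14, 1.12 and 1.03 on BSKO 1 to 4. The order resembles that of Homer1 and of Cacng4, which were likewise lowest on WT 1 and WT 2 and highest on BSKO 3 or, for Cacng4, on BSKO 3 and BSKO 4. Homer2 and Homer3 were higher on WT 1 and WT 2 than on WT 3 and WT 4, by 0.61 and 0.38 in the mean. The 6 measured dentate gyrus markers had a list median of 0.69 and 0.75 on WT 1 and WT 2, -0.0037 to 0.014 on WT 3 and WT 4, with BSKO arrays at -0.41 to 0.12. Those of 8 monoaminergic neuron markers were 0.83 and 0.80 on WT 1 and WT 2 and -0.36 to 0.058 on the other 6 arrays. The 10 markers of meninges and fibroblasts were all lower in BSKO, with list medians of 0.14 to 0.73 in WT and -0.51 to -0.22 in BSKO. Of these markers 3, Ogn, Lum and Aldh1a2, fell without BSKO 2, where 2.15% of all genes passed. Of the 12 astrocyte markers, none called, 11 were lower with 8 arrays, and all but 2 were lower without BSKO 2. Their list medians were 0.036 to 0.16 in WT and -0.43 to 0.0067 in BSKO, with the -0.43 on BSKO 2. No marker can be said to be at 0 in level, as the values are centred. The 7 measured markers of thalamic neurons, none called, had list medians of -0.056 to 0.22 in WT and of 0.47, -0.051, -0.99 and -0.37 on BSKO 1 to 4. BSKO 1 was thus above BSKO 3 and BSKO 4 for this list as for Grik1 and Grm8. On BSKO 2 they differed: the list median lay within the WT range, while Grik1 at -0.54 and Grm8 at -0.65 lay below all WT arrays. The other marker lists had median differences without BSKO 2 of -0.022 (cortical excitatory), -0.23 (cerebellar), -0.16 (GABAergic), -0.065 (oligodendrocyte), -0.0097 (microglia) and -0.064 (endothelium). Their only called gene was Neurod1, in the cortical and cerebellar lists (-1.31 with 8 arrays, limma adjusted p = 0.0495, where 0.0726% of all genes passed). The cerebellar list was higher on WT 1 and WT 2 than on WT 3 and WT 4, by 0.060 beside 0.38 for Homer3. The part of tissue makeup in the values of Cacng4, Grik1, Grm8, Homer1, Homer2 and Homer3 was not tested.

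**Figure D4:**
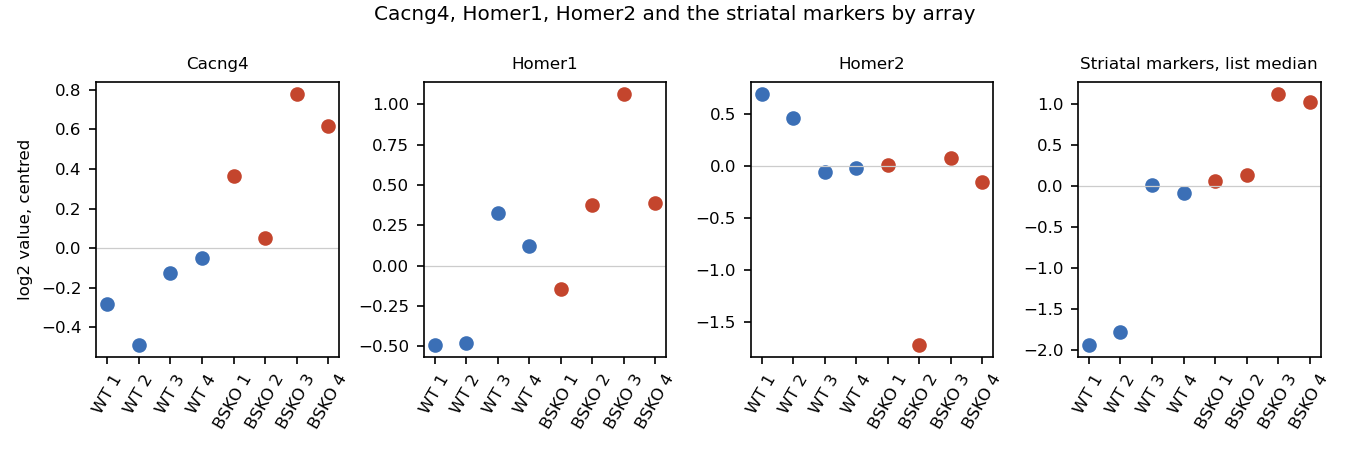
Log2 values on each array of Cacng4, Homer1 and Homer2 and, at the right, the median of 7 striatal marker genes (WT in blue, BSKO in red, each panel with its own scale). The striatal median is -1.94 and -1.79 on WT 1 and WT 2 and -0.084 to 1.12 on the other 6 arrays.

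Other genes of glutamate signalling were taken from 4 lists by their known roles. None of their measured genes passed with 8 arrays. Of 13 measured genes of glutamate transport and metabolism, 1 rose and none fell without BSKO 2, where 2.15% of all genes passed, with a list median of -0.00058. That gene was Slc38a3, a glutamine transporter of astrocytes, at -0.29 to -0.12 in WT and 0.12 to 0.76 in BSKO (difference 0.62 with 8 arrays, limma adjusted p = 0.153, and 0.51 without BSKO 2, adjusted p = 0.0419). Of 21 receptor auxiliary and trafficking genes, 1 rose and none fell without BSKO 2, again beside 2.15% of all genes, with a list median of -0.035. It was Kif17, the kinesin that carries NMDA receptors along dendrites, at -0.74 to -0.18 in WT and 0.18 to 0.71 in BSKO (0.94 with 8 arrays, limma adjusted p = 0.0895, and 0.86 without BSKO 2, adjusted p = 0.0394).

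Of 19 postsynaptic density adaptors and kinases, none rose and 2 fell without BSKO 2, beside 2.15% of all genes, with a list median of 0.10. Camk2d, a subunit gene of the calcium/calmodulin-dependent kinase II that is less abundant in forebrain neurons than Camk2a, was 0.21 to 0.53 in WT and -0.80 to -0.26 in BSKO, a difference of -0.88 with 8 arrays (limma adjusted p = 0.0858) and -0.77 without BSKO 2 (adjusted p = 0.0250). Ppp3cb, a catalytic subunit of the phosphatase calcineurin, was 0.12 to 0.15 in WT and -1.03 to -0.11 in BSKO (-0.50 with 8 arrays, limma adjusted p = 0.387, and -0.28 without BSKO 2, adjusted p = 0.0485). Of 11 effectors of group I metabotropic receptors none passed. The smallest p values there were those of Rgs2 (0.22 with 8 arrays, limma adjusted p = 0.656, and 0.43 without BSKO 2, adjusted p = 0.155) and the diacylglycerol kinase gene Dgkz (0.36, adjusted p = 0.337, and 0.30, adjusted p = 0.184).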

How the data were processed

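Whole-brain RNA of 8 mice was measured on 8 arrays. Per the submitters' processing notes the authors used RMA (version not given in the sources used here), and they deposited 1 log2 value per array for each of 22690 probe sets. For 22689 of these the median over the arrays was within 1e-05 of 0, a centring that no label records. It removes the level and keeps differences. Precision is limited by how few arrays there are.

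The 64 control probe sets were left out and 22626 were tested without a filter. The platform annotation gave 1 symbol for 20380 of them (12393 genes), several for 691 and none for 1555. The genotype difference came from limma 3.58.1 (R 4.3.3) by lmFit and eBayes, two-sided and with no covariate, over all probe sets and over gene means, with Benjamini-Hochberg adjustment over all features and a threshold of 0.05. The code was tested on simulated data. Figures used matplotlib 3.10.9.

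The members, classes, lists and tests were chosen with earlier results of these data known. Array values are given, per class, for the gene of smallest p over 8 arrays and for genes or probe sets called in either fit. The other genes given by array, among them Grik5, Cacng2 and Cacng6, and the 2 sequences were chosen after their values were seen. For the pathway lists up to 4 called genes were named, or the 2 of smallest p. Alternatives were quantile normalization, centring of arrays, leaving out probe sets whose names end in _s_at, _x_at or _a_at, trend and robust eBayes, array weights, a replicate block, replicates 1 and 2 against 3 and 4 as a term, each array left out, the median of probe sets, a threshold of 0.10 and a fold of 1.2.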

Additional observations from a re-analysis of the deposited data

Results flagged for a closer look

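For 5 of 60 groups of 4 arrays (30 genes, 2 genotypes), 1 array lay far from the other 3 by Dixon's gap test, where chance alone gives about 1 in 20. Of the 5, 4 were the array BSKO 2. Cacng3 was -2.60 on it, against -0.20 to 0.26 on the other BSKO arrays. Homer2 was -1.71 on it, against -0.15 to 0.077. Grin2b was 0.73, against -0.066 to 0.032, and Homer3 was 0.46, against -0.085 to -0.018. The fifth was Grin3b on WT 3, at -0.20 against -0.0015 to 0.016 on the other WT arrays.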

How the results depend on the processing

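With 8 arrays the count of called genes went from 0 to 1 after quantile normalization (Cacng4, beside 3.33% of all genes) and to 3 with array weights (Cacng4, Grik1 and Grik5, beside 9.96%). It ranged from 0 to 1 when each array was left out, with 1 only without BSKO 2. The count of called probe sets went from 0 to 2 after quantile normalization and to 5 with array weights, and ranged from 0 to 2 with each array left out. The share of all probe sets called was not counted for quantile normalization, array weights or a further array left out. The probe set counts under these settings therefore cannot be read as particular to these genes. Without BSKO 2, 1 gene and 2 probe sets were called. With array weights these became 4 genes (beside 11.9% of all genes) and 6 probe sets, and with trend and robust settings 1 probe set (Gria1 1435239_at). With a further array left out they ranged from 0 to 6 genes and from 0 to 6 probe sets. The cause was not tested.

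With the replicate number as a block, 0 genes and 0 probe sets were called without BSKO 2, and 0 with 8 arrays. Whether same-numbered samples were paired could not be decided from correlations. The BSKO deviations were taken from a mean that includes BSKO 2, so that array enters all of them. Same-numbered arrays correlated in their deviations by 0.086, 0.056, 0.14 and 0.13, and only replicate 4 of WT correlated best with its own number. The best partners of WT 1 to 4 were BSKO 2, 1, 4 and 4, each within replicates 1 and 2 or within 3 and 4.

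The sign turned for Grid1 with 8 arrays (-0.054 to 0.14 with each array left out), for the Gria1 probe set 1448972_at with 8 arrays (-0.18 to 0.085 with each array left out) and without BSKO 2 (-0.039 to 0.17, and -0.0092 with array weights), and for the Homer1 probe set 1425710_a_at with 8 arrays (-0.20 to 0.53). Array values give no level over background, so a dim gene could not be told from a bright one, and dim probe sets could not be filtered out.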
